A study of Mus musculus with 18 samples.

Results

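The genes described here encode the core and the scaffold of elastic fibers: the elastin gene Eln, the fibrillins Fbn1 and Fbn2, the microfibril-associated glycoprotein gene Mfap5, the fibulins Fbln1, Fbln2, Fbln5, Efemp1 and Efemp2, and Emilin1. These 10 genes were listed by name for their place in the elastic fiber, with earlier results of these data known, from 55335 gene identifiers counted in bulk RNA-seq of O9-1 cells, a single mouse cranial neural crest line, cultured in medium that drives osteoblast differentiation. There were 18 libraries, with 3 replicates in each of 3 groups at day 2.5 (d2.5) and at day 5 (d5). Ctrl+vehicle cells received scrambled siRNA and no FGF2, Ctrl+FGF2 cells received scrambled siRNA and FGF2, and Y/T dKD+FGF2 cells received siRNA pools against Yap1 and Wwtr1 together with FGF2. All groups carried a wildtype genotype and had been through siRNA transfection, and no knocked-down group without FGF2 was among the samples. The labels do not say that replicates came from separate cultures, so the p-values below measure only the spread between these libraries, which may be technical. The day is also labelled as the batch, so a difference between d2.5 and d5 and a difference between batches cannot be told apart.

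An elastic fiber has a core of crosslinked elastin, which is secreted as the monomer tropoelastin, laid down on a scaffold of microfibrils. The microfibrils are polymers of fibrillin with associated glycoproteins, and they also hold latent TGF-beta complexes in the matrix. Fibulins and emilin sit between the scaffold and the core: fibulin-4 and fibulin-5 carry tropoelastin and lysyl oxidase to the microfibril, where lysyl oxidase crosslinks the elastin. Mesenchymal cells such as fibroblasts, osteoblast precursors and vascular smooth muscle cells make these proteins, and fibrillins are made in bone and suture mesenchyme where elastin is scarce.

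The promoters of 4 members are printed, chosen after the values were seen: Fbn1, Fbln5 and Efemp1 were the members lowered furthest by the knockdown at d5, and the FGF2 difference of Emilin1 changed sign between the days. Each window is the RefSeq sequence in GRCm38.p6 from 250 bases before to 50 bases after a start site, written 5′ to 3′ on the strand of the gene. Capitals mark matches on either strand to the GC box (GGGCGG) and to TGANTCA, an AP-1-like motif in which N is any base. Fbn1 lies at chr2:125506389-125506688 on the minus strand, Fbln5 at chr12:101819070-101819369 on the minus strand, Efemp1 at chr11:28852955-28853254 on the plus strand and Emilin1 at chr5:30913536-30913835 on the plus strand. The start sites of Fbn1 and Emilin1 lie 1555 and 384 bases inside the gene as annotated in GENCODE M21. Those windows are thus not at its outer start. For Efemp1 the start site lies 1 base inside, and for Fbln5 64 bases before the gene. RefSeq has 2 windows for Fbln5, and the one that is not printed, chr12:101818435-101818734, held 0 GC boxes at a GC content of 48.7%.
Fbn1: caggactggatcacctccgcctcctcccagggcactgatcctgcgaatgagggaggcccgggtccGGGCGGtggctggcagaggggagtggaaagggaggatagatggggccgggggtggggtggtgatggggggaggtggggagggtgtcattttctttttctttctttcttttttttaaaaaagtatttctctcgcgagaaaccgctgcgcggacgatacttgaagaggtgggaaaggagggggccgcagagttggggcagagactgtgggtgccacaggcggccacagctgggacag
Fbln5: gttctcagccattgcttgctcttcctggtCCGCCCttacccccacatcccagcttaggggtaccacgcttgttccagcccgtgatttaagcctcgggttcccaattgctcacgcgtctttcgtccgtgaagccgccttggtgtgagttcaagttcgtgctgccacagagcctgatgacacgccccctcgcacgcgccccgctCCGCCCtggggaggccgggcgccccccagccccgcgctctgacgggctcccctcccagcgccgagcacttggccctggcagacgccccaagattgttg
Efemp1: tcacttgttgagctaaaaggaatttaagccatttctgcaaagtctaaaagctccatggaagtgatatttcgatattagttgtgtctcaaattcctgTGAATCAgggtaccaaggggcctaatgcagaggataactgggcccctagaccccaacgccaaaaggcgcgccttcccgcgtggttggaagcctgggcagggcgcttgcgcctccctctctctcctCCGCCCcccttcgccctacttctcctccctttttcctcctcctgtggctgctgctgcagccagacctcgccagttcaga
Emilin1: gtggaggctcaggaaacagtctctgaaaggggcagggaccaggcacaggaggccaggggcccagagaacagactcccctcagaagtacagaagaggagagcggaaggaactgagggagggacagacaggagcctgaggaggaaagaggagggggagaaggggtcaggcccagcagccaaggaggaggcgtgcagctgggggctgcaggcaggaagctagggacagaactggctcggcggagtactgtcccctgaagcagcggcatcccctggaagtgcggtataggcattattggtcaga

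Windows were used for 7 of the 10 members, 11 windows in all. None was found for Eln and Mfap5. Member windows on chromosome 18, where Fbn2 lies, were left out, so Fbn2 was not searched. The shares over all windows below keep that chromosome. A GC box was present in 8 of the 11 windows, from 6 of the 7 genes, against 35.6% of 32817 windows of the same length. The 11 are not all separate sequences. Windows overlap for Efemp2 (chr19:5474440-5474739 and chr19:5474485-5474784) and for Fbln1 (chr15:85205699-85205998 and chr15:85205758-85206057). Emilin1 was the gene without it. The AP-1-like motif was found in 1 window, that of Efemp1, as TGAATCA at 154 to 148 bases before the start site. With any base in its middle, it was in 7.81% of all windows. The letters GGAATG, a core bound by TEAD proteins, through which Yap and Taz act on DNA, occurred in 0 of the 11 member windows and in 14.7% of all windows. The CArG box was also in 0 of the 11 (1.63% of all windows), and so was TATAAA (13.6%). The GC content of the member windows ranged from 48.7% to 78.3%, beside a median of 52.7% over all windows. A match or its absence describes only the letters of these windows.

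Each library held between 10377151 and 14698525 counts on genes, with a median of 12330911. The siRNA targets checked the labels: Yap1 stood at 65.3 to 69.6 CPM (counts scaled by library size, per 1000000) in the Y/T dKD+FGF2 libraries of d2.5 against 126 to 132 CPM in Ctrl+FGF2, and at 67.2 to 74.0 against 147 to 159 CPM at d5. Wwtr1, the gene of Taz, stood at 129.96 to 142 against 219 to 225 CPM and at 122 to 128 against 213 to 219 CPM. Both targets were thus lower than in Ctrl+FGF2, and neither was abolished. Set against Ctrl+vehicle, Yap1 was lower on both days (log2 fold change -1.18 ± 0.04 at d2.5 and -1.05 ± 0.05 at d5), whereas Wwtr1, which FGF2 raised by 0.65 ± 0.04 at d2.5, was lower at d5 (-0.89 ± 0.04) and did not pass the edgeR test at d2.5 (-0.06 ± 0.04, adjusted p = 0.122). Of the neural crest markers, Sox10 and Foxd3 had 0 counts in every library while Twist1, Tfap2a and Sox9 were present at 34.0 CPM or more, and the mesenchymal genes Vim and Prrx1 were at 1281.5 CPM or more. Of 9 neural crest markers, 6 averaged at least 1 CPM in every group, as did 5 of 6 mesenchymal markers. Tfap2b and the mesenchymal Thy1 reached at most 0.774 and 0.79 CPM in any library, and the mesenchymal Twist2 was at 2.33 to 17.0 CPM. The labelled cell type is thus met by most of the listed markers, with the early markers Sox10 and Foxd3 absent. The summed markers of endothelium, macrophages, glia and epithelium ranged from 0.101 to 5.50 CPM over the libraries, and the defining markers Cdh5 (endothelium), Ptprc (leukocytes) and Krt18 (epithelium) reached at most 0, 0.163 and 0.17 CPM in any library.

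Measured per length, as mean CPM per kb of exon, the members spanned a wide range of levels in every group. The length joins all annotated exons of a gene (8098 bases for Eln, 2037 for Efemp1) and is not that of 1 transcript. The order of close levels thus depends on the annotation. Efemp1, which encodes fibulin-3, ranked first in all 6 groups, at 217 ± 9.26 CPM per kb (SD, n = 3) with vehicle at d2.5 and at 111 ± 3.21 after the knockdown at d5. In Ctrl+vehicle at d2.5 it was followed by Emilin1 (55.4 ± 2.46 CPM per kb) and Efemp2 (52.9 ± 1.54), whose libraries overlapped, and then by Fbln2, Fbn2, Fbn1 and Fbln5, from 40.5 down to 12.0 CPM per kb, with no overlap between neighbours. Fbln1, Mfap5 and Eln closed the order in that group at 0.491, 0.0900 and 0.0113 CPM per kb. RNA of the fibrillin scaffold was thus far more abundant than that of the elastin core. Fbn2 exceeded Fbn1 per length in every group, at 22.5 ± 1.42 against 14.7 ± 0.512 CPM per kb in Ctrl+vehicle at d2.5 and 29.5 ± 0.577 against 10.6 ± 0.0874 in Y/T dKD+FGF2 at d5. At d5 Fbln5 had moved up to 48.1 ± 1.35 CPM per kb in Ctrl+vehicle, behind Fbln2 (84.9 ± 9.56) and Emilin1 (59.0 ± 2.12), and Eln and Mfap5 overlapped with each other in all 3 groups of d5, between 0.248 and 0.351 CPM per kb.

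**Figure D1:**
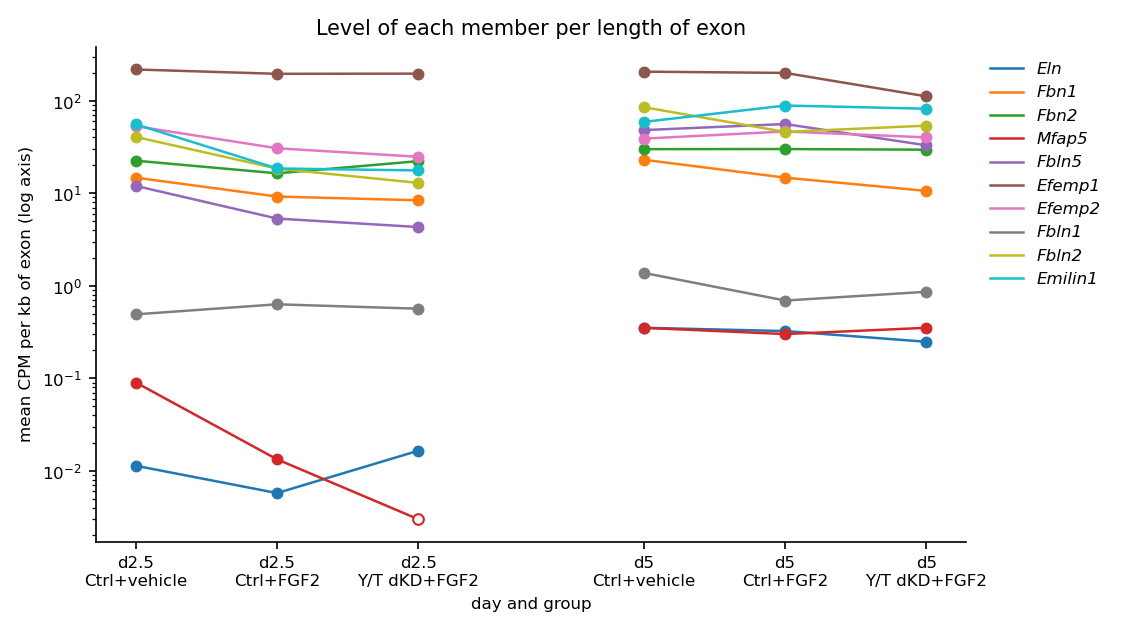
Mean CPM per kb of exon (log axis) of each of the 10 members in the 3 groups of d2.5 and of d5, each point the mean of 3 libraries. Efemp1 is highest in every group and Eln and Mfap5 lowest, and the open circle at the bottom of the axis stands for Mfap5 in Y/T dKD+FGF2 at d2.5, which had 0 counts.

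Elastin transcripts were close to absent at d2.5 and present at low level at d5. Eln (chr5:134702593-134747323, minus strand, GENCODE M21 on GRCm38) had 1, 2 and 1 counts in the Ctrl+vehicle libraries of d2.5, 0, 1 and 1 in Ctrl+FGF2 and 2, 2 and 1 for Y/T dKD+FGF2. At d5 it had 30, 35 and 29 counts in Ctrl+vehicle, 34, 24 and 31 in Ctrl+FGF2 and 14, 30 and 23 for Y/T dKD+FGF2. Every d5 library was above every d2.5 library, and the sums over 9 libraries were 250 against 11 counts. Scaled for library size, d5 exceeded d2.5 by 30.5-fold in Ctrl+vehicle (95% counting interval 11.5 to 114), by 55.7-fold in Ctrl+FGF2 (15 to 467) and by 15-fold for Y/T dKD+FGF2 (6.11 to 47.7). These intervals and the later ones cover counting error only. Within d5 the 3 groups overlapped: the mean was 2.85 ± 0.215 CPM (SD, n = 3) with vehicle, 2.62 ± 0.602 with FGF2 and 2.01 ± 0.712 after the knockdown. Neither the FGF2 difference (log2 fold change -0.12 ± 0.24 SE, adjusted p = 0.726) nor the knockdown difference (-0.39 ± 0.26, adjusted p = 0.289) passed the edgeR quasi-likelihood test. At d2.5 Eln was too low to be tested, and no difference between groups was detectable at this depth. In bulk RNA, a change in the share of cells that transcribe a gene and a change in RNA per cell cannot be told apart, here and for each gene below. An exon of the antisense-strand gene Gm30003 overlaps Eln, and the counts used are those of the reverse-strand column, which keeps the strands apart.

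**Figure D2:**
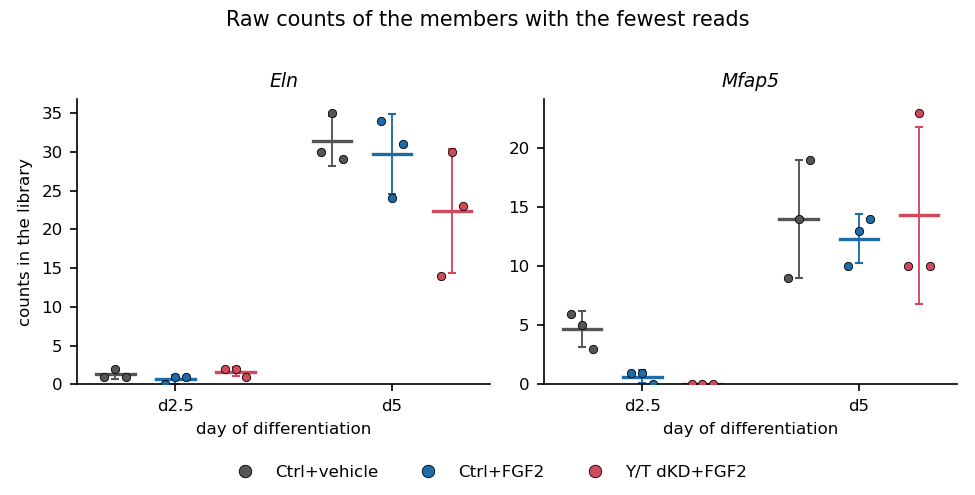
Raw counts per library of Eln and Mfap5 in the 3 groups of each day, with the group mean (line) and SD (bar) of 3 libraries. Eln holds 0 to 2 counts in each d2.5 library and 14 to 35 in each d5 library, while Mfap5 falls from 3 to 6 counts in Ctrl+vehicle to 0 after the knockdown at d2.5 and lies between 9 and 23 at d5.

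Mfap5 (chr6:122505845-122529290, plus strand) encodes MAGP-2, a small glycoprotein that binds fibrillin. At d2.5 it had 6, 5 and 3 counts in Ctrl+vehicle, 1, 1 and 0 in Ctrl+FGF2 and 0 in each Y/T dKD+FGF2 library. At d5 it had 9, 14 and 19, then 10, 13 and 14, then 10, 23 and 10 counts in the same order of groups. The vehicle libraries of d2.5 lay above the FGF2 libraries without overlap, by 7-fold over Ctrl+FGF2 (95% counting interval 1.61 to 63.4) and at least 4.09-fold over Y/T dKD+FGF2, taking a floor of 3 counts over the 3 libraries that were at 0 (the lower 95% counting limit of this ratio is 2.91). The groups of d5 overlapped, with log2 fold changes of -0.22 ± 0.35 for FGF2 (adjusted p = 0.638) and 0.24 ± 0.35 for the knockdown (adjusted p = 0.659). From d2.5 to d5 Mfap5 rose by 3.89-fold in Ctrl+vehicle (2.08 to 7.72), by 23.1-fold in Ctrl+FGF2 (5.97 to 198) and at least 16.0-fold after the knockdown by the same floor (lower 95% counting limit 12.5). The gene was below the filter on low counts in the d2.5 fit and entered the 18-library fit through its d5 libraries, as Eln did, so a difference between days in that fit was in part set by the filter.

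The fibrillins, the polymers of the microfibril, answered differently from each other. Fbn1 (chr2:125300594-125507993, minus strand) was lower with FGF2 on both days. At d2.5 it stood at 185, 173 and 177 CPM in Ctrl+vehicle, 109, 113 and 113 in Ctrl+FGF2 and 96.7, 104 and 105 for Y/T dKD+FGF2. At d5 the values were 273, 276 and 288, then 167, 186 and 183, then 127, 129.6 and 128 CPM. Thus the vehicle libraries were highest on both days, and the knockdown libraries lay below all Ctrl+FGF2 libraries, narrowly at d2.5 and by a wide margin at d5. The FGF2 difference was -0.69 ± 0.04 in log2 at d2.5 (adjusted p = 4.1e-16) and -0.63 ± 0.04 at d5 (adjusted p = 2.1e-09). The knockdown difference was -0.14 ± 0.04 at d2.5 (adjusted p = 0.0125) and -0.48 ± 0.04 at d5 (adjusted p = 1.9e-07). The d2.5 value lost its call without Ctrl+FGF2 replicate 3 or without Y/T dKD+FGF2 replicate 1. Over the 2 differences together, Fbn1 in Y/T dKD+FGF2 at d5 was at 46.3% of Ctrl+vehicle.

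Fbn2, on chromosome 18, encodes the fibrillin that is most abundant in development. Its libraries at d2.5 were at 317, 279.6 and 294 CPM in Ctrl+vehicle, 206, 221 and 223 in Ctrl+FGF2, and 292, 290.1 and 298 for Y/T dKD+FGF2. The FGF2 libraries were lowest, and the knockdown libraries stood within the range of the vehicle libraries. FGF2 lowered it (log2 fold change -0.47 ± 0.04, adjusted p = 5.0e-12), the knockdown raised it over Ctrl+FGF2 (0.43 ± 0.04, adjusted p = 1.9e-09), and the remaining difference from vehicle was -0.04 ± 0.04 (adjusted p = 0.396). At d5 the 3 groups overlapped at 394, 396 and 397, then 376, 415 and 398, then 383, 389 and 398 CPM. None of the d5 differences passed the test (adjusted p from 0.6 to 0.806), and the log2 differences ranged from -0.03 to 0.02, each with an SE of 0.04.

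Among the short fibulins, Fbln5 (chr12:101746565-101819055, minus strand) encodes fibulin-5, which binds tropoelastin and lysyl oxidase-like proteins. At d2.5 it was at 86.9, 78.5 and 83.1 CPM in Ctrl+vehicle, 35.9, 37.8 and 36.7 in Ctrl+FGF2 and 30.1, 28.9 and 30.4 for Y/T dKD+FGF2. At d5 the values were 341, 323 and 333, then 404, 371 and 385, then 231, 226 and 226 CPM. The groups did not overlap on either day, and the order of vehicle and FGF2 was turned around between the days. FGF2 lowered Fbln5 by 1.18 ± 0.05 in log2 at d2.5 (adjusted p = 2.8e-19), and at d5 the difference was 0.23 ± 0.04 (adjusted p = 9.7e-05). The knockdown differences were -0.31 ± 0.06 at d2.5 (adjusted p = 0.00026) and -0.77 ± 0.04 at d5 (adjusted p = 1.6e-10), so that Fbln5 in Y/T dKD+FGF2 at d5 was below vehicle as well (-0.54 ± 0.04, adjusted p = 6.9e-09).

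Efemp1 (chr11:28853204-28926743, plus strand) encodes fibulin-3 and differed with the knockdown at d5 and not detectably at d2.5. At d2.5 it was at 463, 426 and 439 CPM in Ctrl+vehicle, 391, 399 and 402 in Ctrl+FGF2 and 409.7, 392 and 396 for Y/T dKD+FGF2. At d5 it was at 469, 378 and 411, then 417, 389.7 and 412, then 219.5, 232 and 228 CPM. The knockdown libraries of d5 stood apart from all the other 15 libraries, which overlapped across days. The log2 difference with the knockdown was 0.00 ± 0.03 at d2.5 (adjusted p = 0.968) and -0.85 ± 0.06 at d5 (adjusted p = 6.9e-09), where 55.6% of the Ctrl+FGF2 level was left. FGF2 alone shifted it by -0.17 ± 0.03 at d2.5 (adjusted p = 3.5e-05) and by -0.03 ± 0.06 at d5 (adjusted p = 0.672).

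Efemp2 (chr19:5473954-5482517, plus strand) encodes fibulin-4, which elastic fiber assembly requires. It was at 195, 206 and 200.4 CPM with vehicle at d2.5, at 118, 116 and 114 in Ctrl+FGF2 and at 91.3, 98.2 and 91.8 for Y/T dKD+FGF2. At d5 the values were 154, 141 and 147, then 189, 163 and 177, then 147, 159 and 149 CPM. FGF2 lowered Efemp2 at d2.5 (log2 fold change -0.80 ± 0.04, adjusted p = 5.7e-18) and raised it at d5 (0.27 ± 0.05, adjusted p = 0.00037). The knockdown libraries were below Ctrl+FGF2 on both days, by a log2 difference of -0.31 ± 0.04 at d2.5 (adjusted p = 1.7e-06) and -0.22 ± 0.05 at d5 (adjusted p = 0.00365). Exons on the other strand also overlap Efemp2 (Mus81), Fbn1 (Gm9913) and Fbn2 (Gm26507).

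**Figure D3:**
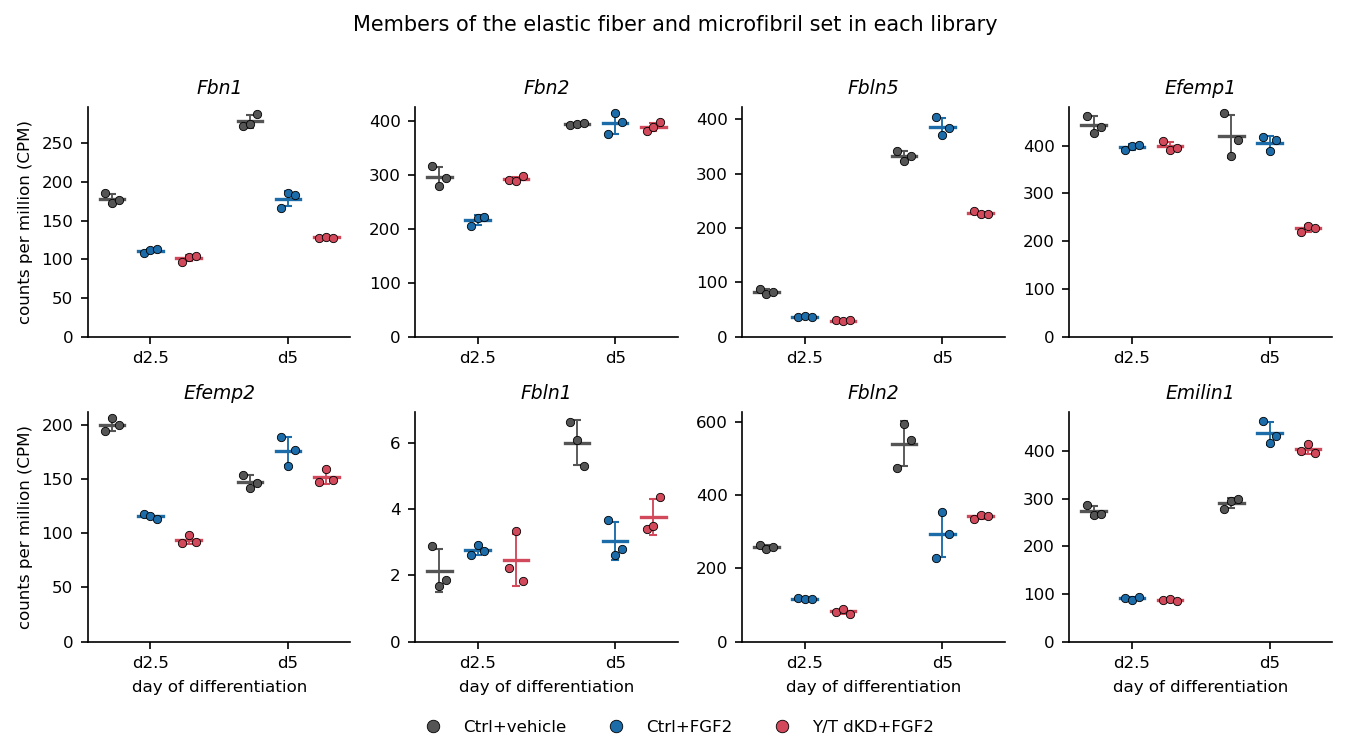
CPM of the 8 members with enough counts on both days, 1 point per library, with the mean (line) and SD (bar) of the 3 libraries of each group, on axes that start at 0. Emilin1 and Fbln5 show the order of Ctrl+vehicle and Ctrl+FGF2 turned around between d2.5 and d5, and Efemp1 shows the d5 knockdown libraries at 219.5 to 232 CPM below the 15 others.

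The long fibulins stood at very different levels. Fbln2 (chr6:91212455-91272540, plus strand), whose fibulin-2 binds fibrillin-1 and tropoelastin, was at 264, 253 and 258 CPM in Ctrl+vehicle at d2.5, 119, 117 and 117 in Ctrl+FGF2 and 80.4, 89.9 and 76.6 for Y/T dKD+FGF2. At d5 it was at 475, 596 and 551, then 229.5, 354 and 295, then 335, 347 and 344 CPM. Vehicle libraries were highest on both days, and at d5 the knockdown libraries lay inside the wide range of the Ctrl+FGF2 libraries. FGF2 lowered Fbln2 by 1.15 ± 0.04 in log2 at d2.5 (adjusted p = 3.3e-21) and by 0.87 ± 0.10 at d5 (adjusted p = 1.8e-06). The knockdown difference was -0.52 ± 0.05 at d2.5 (adjusted p = 9.1e-10) and 0.22 ± 0.10 at d5 (adjusted p = 0.123). The d5 value passed the threshold when Ctrl+FGF2 replicate 2, the highest library of its group, was left out. It also passed with no filter on low counts, with a replicate block and with all 18 libraries in 1 fit. Fbln1 (chr15:85205949-85286535, plus strand), which encodes a fibulin of elastic fiber cores and basement membranes, was at 1.68 to 3.34 CPM in the 9 libraries of d2.5, with overlapping groups. At d5 it was at 6.63, 6.08 and 5.30 CPM in Ctrl+vehicle, 3.68, 2.61 and 2.78 in Ctrl+FGF2 and 3.40, 3.49 and 4.38 for Y/T dKD+FGF2. Its vehicle libraries were highest at d5, and FGF2 lowered it by 0.98 ± 0.18 in log2 (adjusted p = 0.00019). At d2.5 the FGF2 difference was 0.35 ± 0.23 (adjusted p = 0.184), which passed the threshold without Ctrl+vehicle replicate 1, the highest of its group.

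Emilin1 (chr5:30913402-30921277, plus strand) encodes a glycoprotein at the interface of elastin and microfibrils. At d2.5 it was at 288, 266 and 267 CPM in Ctrl+vehicle, 91.8, 87.8 and 94.5 in Ctrl+FGF2 and 86.7, 89.6 and 84.7 for Y/T dKD+FGF2. At d5 it was at 279, 295 and 299, then 464, 417 and 431, then 400.4, 415 and 397 CPM. Vehicle libraries were above both FGF2 groups at d2.5 and below both at d5. FGF2 lowered Emilin1 to 33.1% of vehicle at d2.5 (log2 fold change -1.59 ± 0.04, adjusted p = 2.6e-25) and raised it 1.51-fold at d5 (0.60 ± 0.04, adjusted p = 3.3e-09). The knockdown differences were small beside these, -0.08 ± 0.04 at d2.5 (adjusted p = 0.199) and -0.12 ± 0.04 at d5 (adjusted p = 0.0326). The d5 call was lost without any 1 of 4 libraries (Ctrl+FGF2 replicate 1 or 3, Y/T dKD+FGF2 replicate 1 or 3) and with DESeq2.

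With FGF2, most members were lower at d2.5, whereas at d5 as many were higher as lower. The comparison of Ctrl+FGF2 with Ctrl+vehicle asks how the growth factor changes expression in differentiating cells on each day. At d2.5, 8 of the 10 members passed the filter, and 7 of these 8 were lower and 0 higher with FGF2, the exception being Fbln1. Over all 13677 genes tested at d2.5, 34.1% were called lower and 33.5% higher. The 0 members higher were also 0 at an unadjusted p under 0.05 and 0 with DESeq2, and 1 (Fbln1) without Ctrl+vehicle replicate 1. The median log2 fold change of the 8 was -0.75, beside 0.00 over all genes. At d5, 3 of 10 members were higher (Fbln5, Efemp2, Emilin1) and 3 lower (Fbn1, Fbln1, Fbln2), beside 23.5% higher and 23.7% lower among 13304 genes, and the median was -0.07 beside 0.02. The share of members called at d5 is thus close to that of all genes in both directions.

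The difference of the FGF2 effect between days was tested itself, as an interaction over the 18 libraries. Of the 8 members tested on both days, it was higher at d5 than at d2.5 for 4 and lower for 1, with 31.8% higher and 29.1% lower among 14198 genes. Emilin1 differed most among the well-counted members, by 2.17 ± 0.06 in log2 (adjusted p = 1.9e-22), followed by Fbln5 (1.39 ± 0.06, adjusted p = 9.8e-18) and Efemp2 (1.05 ± 0.07, adjusted p = 3.0e-14). In these 3 genes the effect changed sign, from lower at d2.5 to higher at d5. Fbn2 (0.46 ± 0.06, adjusted p = 8.5e-08) went from lower to no detectable difference. Mfap5, which passed the filter through its d5 libraries and is left out of this count, had a value of 2.34 ± 0.91 (adjusted p = 0.0284) that rested on 0 to 1 counts in the Ctrl+FGF2 libraries of d2.5, and the call was lost with DESeq2, without Ctrl+vehicle replicate 1 of d2.5 and without Ctrl+FGF2 replicate 3 of d2.5. Fbln1 went the other way (-1.35 ± 0.30, adjusted p = 0.00025). For Fbn1 the FGF2 effects of the 2 days did not differ detectably (0.04 ± 0.06, adjusted p = 0.613).

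**Figure D4:**
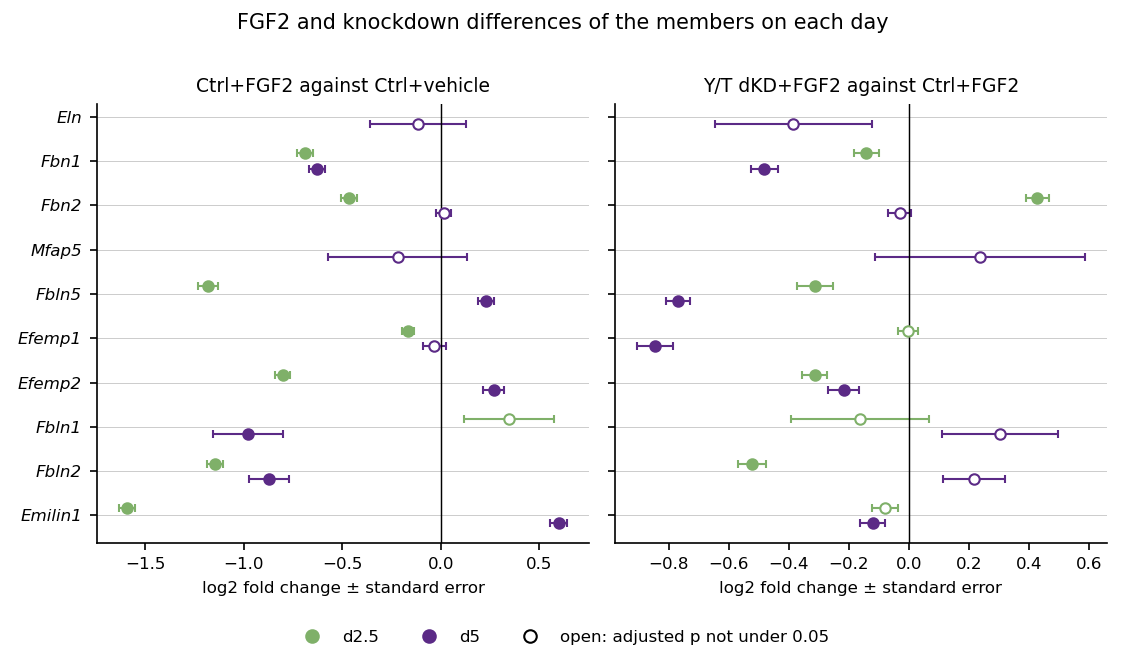
Log2 fold change ± SE of each member at d2.5 and d5, for Ctrl+FGF2 against Ctrl+vehicle (left) and Y/T dKD+FGF2 against Ctrl+FGF2 (right), 3 libraries per group, with open symbols where the adjusted p is not under 0.05. Emilin1, Fbln5 and Efemp2 lie left of 0 at d2.5 and right of 0 at d5 with FGF2, and Fbln5 and Efemp1 are the lowest points at d5 with the knockdown (-0.77 and -0.85). Eln and Mfap5 were not tested at d2.5.

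With the knockdown, 4 members were lower and 1 higher at d2.5, and 5 were lower at d5. The comparison of Y/T dKD+FGF2 with Ctrl+FGF2 asks which part of the expression under FGF2 depends on Yap and Taz. At d2.5 the lower members were Fbn1, Fbln5, Efemp2 and Fbln2 and the higher one Fbn2, of 8 tested, beside 13.6% lower and 10.8% higher among all genes. At d5 the 5 lower of 10 were Fbn1, Fbln5, Efemp1, Efemp2 and Emilin1, beside 16.1% lower and 15.6% higher among all genes. The 0 members higher at d5 were also 0 at an unadjusted p under 0.05 and 0 with DESeq2, which called 4 lower. The count was 1 (Fbln2) with no filter on low counts, with a replicate block and with all 18 libraries in 1 fit. It was also 1 without Ctrl+FGF2 replicate 2. The medians of the members were -0.15 at d2.5 and -0.17 at d5, beside 0.00 over all genes on both days. Fbn1, Fbln5 and Efemp2 were lower on both days. With the further demand of a 1.5-fold change, 0 members remained called at d2.5 and 2 at d5 (Fbln5 and Efemp1).

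The knockdown effect differed between days for 5 of these 8 members, 4 of them lower at d5 and 1 higher, beside 9.35% lower and 11.6% higher among all genes. Efemp1 differed by -0.85 ± 0.07 in log2 (adjusted p = 6.5e-10), Fbn2 by -0.46 ± 0.06 (adjusted p = 1.2e-06), Fbln5 by -0.46 ± 0.07 (adjusted p = 1.5e-05) and Fbn1 by -0.34 ± 0.06 (adjusted p = 0.00015). For Fbn1, Fbln5 and Efemp1 the lowering was larger at d5, whereas for Fbn2 a higher level at d2.5 was no longer seen at d5. Fbln2 went the other way (0.73 ± 0.13, adjusted p = 0.00011), from lower at d2.5 to no detectable difference at d5.

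Set against vehicle, the Y/T dKD+FGF2 cells had lower levels of most tested members at d2.5 and of 5 of 10 at d5. This comparison shares its libraries with the other 2 of the same day, its difference between days was not tested, and the level of Wwtr1 was not detectably below vehicle at d2.5. At d2.5, 6 of 8 members were lower and 0 higher (also 0 at an unadjusted p under 0.05 and 0 with DESeq2), beside 35.7% lower and 34.1% higher among all genes, with Fbn2 and Fbln1 not called. The largest differences were Fbln2 and Emilin1, both at -1.67 ± 0.04 in log2 (adjusted p = 1.0e-24 and 1.4e-25), Fbln5 at -1.50 ± 0.05 (adjusted p = 3.1e-21) and Efemp2 at -1.12 ± 0.04 (adjusted p = 3.2e-21). At d5, 5 of 10 were lower, beside 21.1% among all genes: Fbn1 (-1.11 ± 0.04), Efemp1 (-0.88 ± 0.06), Fbln1 (-0.68 ± 0.17), Fbln2 (-0.66 ± 0.10) and Fbln5 (-0.54 ± 0.04), with adjusted p from 2.6e-12 to 0.00379. Emilin1 was higher (0.48 ± 0.04, adjusted p = 6.0e-08), beside 20.7% higher among all genes. Efemp2, 46.1% of vehicle at d2.5, did not differ detectably from vehicle at d5 (0.05 ± 0.05, adjusted p = 0.463).

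From d2.5 to d5 most of the 8 members tested on both days rose. Eln and Mfap5 are left out of these counts and medians, since they passed the filter through their d5 libraries. In Ctrl+vehicle 5 of the 8 were higher and 1 lower at d5, beside 33.1% higher and 33.2% lower among 14198 genes. In Ctrl+FGF2 6 were higher and 0 lower (0 also at an unadjusted p under 0.05 and with DESeq2), beside 41.2% and 38.8%, and in Y/T dKD+FGF2 7 were higher and 1 lower, beside 40.3% and 38.1%. The medians of the 8 members were 0.53, 0.78 and 0.64 in log2, beside -0.02, 0.03 and 0.02 over all genes. Fbln5 rose by 2.0 ± 0.04 in log2 in Ctrl+vehicle, 3.39 ± 0.05 in Ctrl+FGF2 and 2.93 ± 0.05 for Y/T dKD+FGF2 (adjusted p of 2.4e-26 or lower). Emilin1 was level in Ctrl+vehicle (0.09 ± 0.04, adjusted p = 0.0573, a value that passed the threshold with RLE size factors, with DESeq2 and without any 1 of 4 libraries), and rose by 2.26 ± 0.04 in Ctrl+FGF2 and 2.21 ± 0.05 for Y/T dKD+FGF2. Efemp2 fell in Ctrl+vehicle (-0.45 ± 0.05, adjusted p = 1.0e-09) and rose in the FGF2 groups (0.60 ± 0.05 and 0.70 ± 0.05). Efemp1 fell in Y/T dKD+FGF2 (-0.82 ± 0.05, adjusted p = 5.2e-15) and was not called in the other groups. The call of Fbln1 in Y/T dKD+FGF2 (0.59 ± 0.22, adjusted p = 0.0168) was lost without Y/T dKD+FGF2 replicate 1 or 3 of d2.5 or replicate 3 of d5.

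Marker genes of other mesenchymal fates also differed between the groups, not always in the direction of the members. The summed CPM of 6 smooth muscle markers was 264 to 363 in Ctrl+vehicle, 80.1 to 88.7 in Ctrl+FGF2 and 66.2 to 75.8 for the knockdown at d2.5, and 2389 to 2554, 3224 to 3656 and 2732 to 2913 at d5. Acta2 and Smtn, which are also made by other mesenchymal cells, gave most of it, while Cnn1, Myh11 and Des stayed at 1.70 CPM or below. The sum of 8 osteoblast markers was 17166 to 17506, 9599 to 9847 and 11677 to 12202 CPM at d2.5, and 32313 to 34532, 17830 to 19217 and 24507 to 26181 at d5. Col1a1 or Spp1 led this sum in every group, at up to 32693 and 8971 CPM. The highest of the others, Dmp1, reached at most 1026 CPM, and Alpl and Bglap at most 169 and 3.17 CPM. The 4 chondrocyte markers summed to 540 to 760, 39.9 to 44.9 and 48.4 to 49.9 CPM at d2.5, and to 178 to 287, 243 to 351 and 332 to 341 CPM at d5, where Ctrl+vehicle and Ctrl+FGF2 overlapped. Their part in the differences of the members was not tested.

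The rest of the elastic fiber machinery gives the setting of these members. A list of 33 further genes held 6 microfibril and latent TGF-beta binding genes, 7 emilin and fibulin relatives, 5 crosslinking enzymes, 7 ADAMTS family proteins of microfibrils and 8 elastin-degrading enzymes. At d2.5 all 19 that were tested were called with FGF2, 14 lower and 5 higher, beside 34.1% lower and 33.5% higher among all genes. At d5, of 23 tested, 12 were higher and 6 lower with FGF2, beside 23.5% and 23.7%. With the knockdown 8 of 19 were lower and 2 higher at d2.5, beside 13.6% and 10.8%, and 10 of 23 lower and 3 higher at d5, beside 16.1% and 15.6%. The medians for FGF2 were -0.44 at d2.5 and 0.21 at d5, and for the knockdown -0.10 and -0.13, beside all-gene medians of 0.00, 0.02, 0.00 and 0.00.

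Lox, the lysyl oxidase that crosslinks elastin and collagen, was the gene of this list with the highest counts. Its mean was 1206 ± 10.8 CPM (SD, n = 3) with vehicle, 467 ± 20.5 with FGF2 and 468 ± 16.1 after the knockdown at d2.5, and 3623 ± 6.61, 3595 ± 201 and 1769.6 ± 54.8 at d5. FGF2 lowered Lox at d2.5 (-1.38 ± 0.03 in log2, adjusted p = 6.4e-26) and not detectably at d5 (0.00 ± 0.04, adjusted p = 0.982), whereas the knockdown lowered it at d5 (-1.03 ± 0.04, adjusted p = 5.8e-12) and not detectably at d2.5 (-0.01 ± 0.03, adjusted p = 0.920). For Lox, as for Efemp1, the knockdown effect differed between days (-1.02 ± 0.05, adjusted p = 2.5e-14). The other enzymes went other ways: Loxl3 rose with FGF2 on both days (1.54 ± 0.04 and 0.54 ± 0.05), and Loxl2 changed from -0.18 ± 0.08 at d2.5 to 0.31 ± 0.04 at d5.

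Among the latent TGF-beta binding proteins, which attach to fibrillin microfibrils, Ltbp1 rose with FGF2 at d2.5 from 559 ± 8.96 to 1012 ± 19.4 CPM (log2 fold change 0.84 ± 0.03, adjusted p = 1.4e-21) and did not pass at d5 (0.07 ± 0.03, adjusted p = 0.093). Ltbp3 rose with FGF2 on both days (0.63 ± 0.04 and 0.68 ± 0.04). Ltbp4, which takes part in elastin assembly with fibulin-5, went from -0.24 ± 0.06 at d2.5 to 0.52 ± 0.05 at d5. Fbln5 and Ltbp4 thus both had FGF2 differences that were negative at d2.5 and positive at d5. Emilin2, a relative of Emilin1, was lower with FGF2 on both days (-0.44 ± 0.04 and -0.46 ± 0.05) and lower again with the knockdown (-0.36 ± 0.05 and -0.39 ± 0.05). Fbln7 had 89 counts in Ctrl+vehicle against 2 and 3 in the FGF2 groups of d2.5, and 1094 to 1312 counts per group at d5. Hmcn1 was at 7.42 ± 0.73, 7.03 ± 0.846 and 5.35 ± 1.14 CPM at d5.

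Of the ADAMTS family, Adamtsl4, a fibrillin-binding protein, was lowered by the knockdown on both days (-0.82 ± 0.10, adjusted p = 3.0e-07, and -0.82 ± 0.07, adjusted p = 1.2e-07). Adamts6 rose with the knockdown at d2.5 (0.91 ± 0.16, adjusted p = 0.0001) and not detectably at d5 (0.11 ± 0.09, adjusted p = 0.374). Adamts10 was lower with FGF2 at d2.5 (-0.71 ± 0.10) and higher at d5 (0.29 ± 0.09). Of the enzymes that can cut elastin, the gelatinase Mmp2 fell with FGF2 from 872 ± 39.9 to 389 ± 4.30 CPM at d2.5 (-1.18 ± 0.03) and did not differ detectably at d5 (-0.01 ± 0.04, adjusted p = 0.810), where the knockdown raised it (0.35 ± 0.04, adjusted p = 7.1e-06). The cathepsin Ctsk was at 46.6 ± 1.06 CPM in Ctrl+vehicle at d5, at 2.12 ± 0.177 in Ctrl+FGF2 and at 6.73 ± 0.980 for Y/T dKD+FGF2. Ctsl, a lysosomal cathepsin, was higher with FGF2 at d2.5 (0.39 ± 0.03) and lower at d5 (-0.46 ± 0.04).

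**Figure D5:**
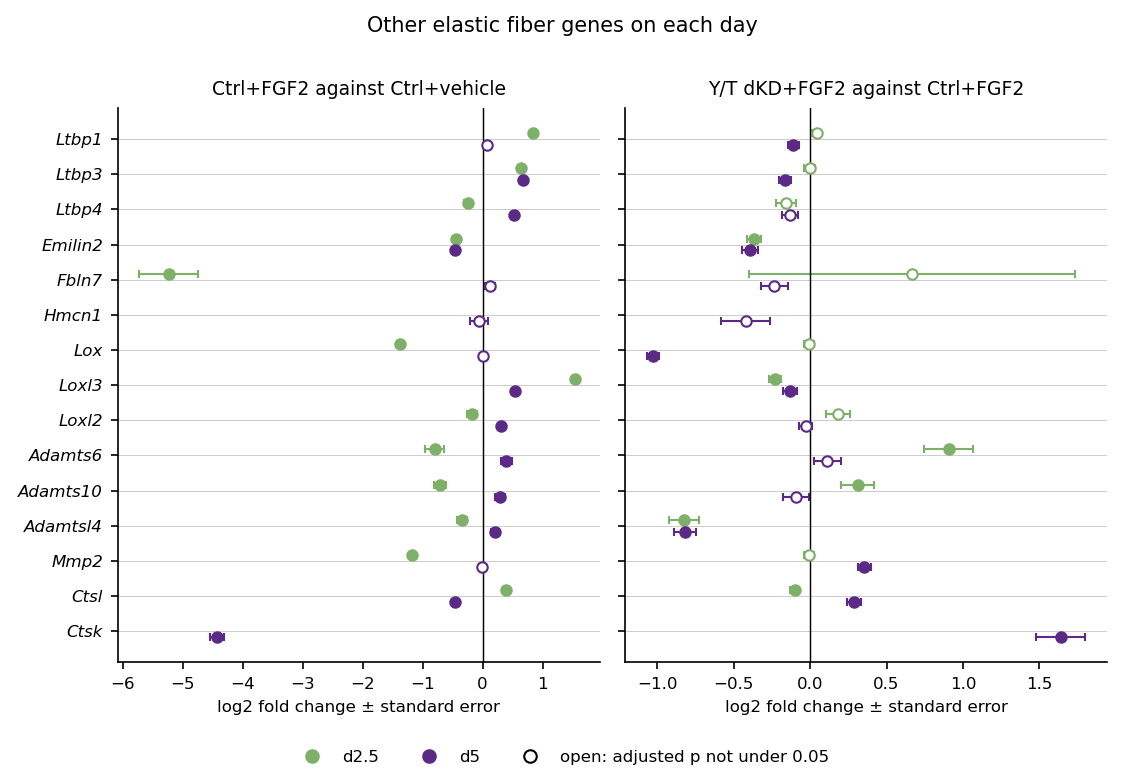
Log2 fold change ± SE at d2.5 and d5 of the 3 genes with the highest mean CPM in each group of the further elastic fiber list, for FGF2 (left) and the knockdown (right), 3 libraries per group, with open symbols where the adjusted p is not under 0.05. Lox lies at -1.38 with FGF2 at d2.5 and at -1.03 with the knockdown at d5, and the d2.5 point of Fbln7 rests on 2 and 3 counts in the FGF2 groups.

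The genes whose levels followed a member most closely were sought by Pearson r of log2 CPM over the 18 libraries, among 14197 tested genes, as a description. The libraries share their day, so a gene that differs strongly between days scores high with Eln and Mfap5. Those most like Eln were Ginm1 (r = 0.990), Epdr1 (0.989), Fam3c (0.985), Pid1 (0.985) and 9530068E07Rik (0.984). For Mfap5 they were Peg13 (0.981), 5930403N24Rik (0.980), Pdgfrb (0.979), C1qtnf1 (0.978) and Phc3 (0.978). For Fbn1, which moved with FGF2 and the knockdown as well as with the day, they were Sh3tc2 (0.960), Sel1l (0.959), Kctd7 (0.954), Arfgef2 (0.953) and Emilin2 (0.95).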

How the data were processed

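The samples were poly(A) RNA-seq libraries, made with a SMARTER mRNA-Seq kit. Per the file layout, the authors deposited raw gene counts in 3 columns (unstranded and each strand), not normalized, and their processing notes name FastQC, STAR, Picard, featureCounts and mm10. The reverse-strand column was used, which held 96.0% to 96.6% of stranded counts. Rows without a gene, 27.0% to 34.4% of each library, were not used. Names and coordinates came from GENCODE M21 on GRCm38 (55154 of 55335 identifiers matched, regardless of version number), and promoter windows from RefSeq.

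The tests used the quasi-likelihood method of edgeR 4.0.16 (R 4.3.3) after filterByExpr and TMM scaling, with 1 fit of the 9 libraries of each day and 1 fit of all 18 for comparisons between days. A gene is called at a Benjamini-Hochberg adjusted p under 0.05 over all genes tested. CPM are scaled by TMM, and SE is the size of the log2 fold change over the square root of its F statistic. DESeq2 1.42.0 was an alternative. The members and gene lists were chosen with earlier results of these data known. Named genes are the members, the siRNA targets, the 3 genes of highest mean CPM in each further list, and the 5 most like Eln, Fbn1 and Mfap5.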

Additional observations from a re-analysis of the deposited data

Results flagged for a closer look

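Of the 8 members tested on both days, the effect of FGF2 differed between days for 5 (4 higher, 1 lower) and that of the knockdown for 5 (1 higher, 4 lower), each by the interaction test of edgeR at an adjusted p under 0.05. Over all genes, 31.8% were higher and 29.1% lower for FGF2, so the share of members called is close to that of all genes, and 11.6% were higher and 9.35% lower for the knockdown. As the effect at d5 minus that at d2.5 in log2, the FGF2 differences were 2.17 for Emilin1, 1.39 for Fbln5, 1.05 for Efemp2, 0.46 for Fbn2, 2.34 for Mfap5 and -1.35 for Fbln1. Mfap5 passed the filter through its d5 libraries, is not among the 5, and its value rests on 2 counts in the 3 Ctrl+FGF2 libraries of d2.5. The knockdown differences were 0.73 for Fbln2, -0.34 for Fbn1, -0.46 for Fbn2, -0.46 for Fbln5 and -0.85 for Efemp1. A batch that shifts a whole day cancels in these differences, whereas one that changes an effect cannot be told apart from the day.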

How the results depend on the processing

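Over the alternatives (other scalings, DESeq2, filters on low counts, unstranded counts, fewer or more libraries in the fit, a replicate block, stricter thresholds and each library left out in turn), 2416 values of members were set beside the main ones. The stricter thresholds kept the main log2 fold changes, so there a call could only be lost. None of the 2416 values changed sign past the threshold, 40 lost a call and 21 gained one. Of 255 recomputed counts of called members, 252 stayed within 1.5 times. A demand of at least a 1.5-fold change left 0 members called for the knockdown at d2.5, 2 at d5, and 2 for its difference between days, and reduced calls over all genes from 3345 to 276, from 4220 to 1079 and from 2973 to 854. Under upper-quartile factors the median of all genes was 0.12 for the difference of the FGF2 effect between days, beside 0.03 with TMM. For d5 against d2.5 in Ctrl+vehicle it was -0.11, beside -0.02 with TMM.

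The deviations of same-numbered libraries from their group means had correlations from -0.072 to 0.115, beside -0.122 to 0.089 for other-numbered ones. Between Ctrl+vehicle and Ctrl+FGF2 of d5 the same-numbered values were 0.097, 0.115 and 0.015, beside -0.122 to 0.021 for the others. Whether same-numbered libraries were paired cannot be told from these values. With a replicate block, 6 members were called for the knockdown at d5 and 7 for the FGF2 difference between days, in place of 5 and 6 (Mfap5 included), since Fbln2 passed. Counts are the limit for Eln and Mfap5 at d2.5, where 3 counts are 0.19 to 0.25 CPM of a library.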
